A study of Caenorhabditis elegans with 3 samples.

Results

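SCF ubiquitin ligases attach ubiquitin to selected proteins and so mark them for the proteasome. In each complex a cullin is the scaffold, a small Skp1-related protein is the adaptor, and an F-box protein binds the substrate, while a RING protein at the other end of the cullin brings in the ubiquitin-charged enzyme. The nematode Caenorhabditis elegans carries enlarged families of both adaptors (skr genes) and F-box proteins (fbxa, fbxb and fbxc genes), most of them with no known substrate. The genes described here are those whose single symbol in the array's annotation starts with cul-, skr-, fbxa-, fbxb- or fbxc-. There were 335 of them among 17118 measured genes, namely 6 cullins, 19 skr genes, 171 fbxa genes, 95 fbxb genes and 44 fbxc genes. The name SCF fits only a portion of the cullins, since CUL-2, CUL-3, CUL-4 and CUL-5 work with adaptors other than Skp1.

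Wild-type hermaphrodite young adults, 3 days old and grown from synchronised eggs, were kept for 24 h at 20 °C in a potassium and sodium chloride medium with no bacteria to eat. One set of worms was exposed to GO, one to rGO, and one was the control; the labels give only these abbreviations, which the published study is known to use for graphene oxide and reduced graphene oxide. The labels state neither the dose nor how many worms went into an RNA sample. All 3 sets shared the strain, the age, the medium and the lack of food. Total RNA of each set, 300 ng, was hybridised to 1 Affymetrix array, so each condition has 1 array, no spread between replicates exists, and no p-value or error is given. Every value below is a log2 array value or a difference of such values between single arrays, in which 1 unit is 2-fold.

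A value was called above background at 6.24 or more, the highest of 8 control probe sets with no expected target. A gene entered a comparison if at least 1 of the 2 arrays compared read 6.79 (the median over all genes and arrays) or more, and it was counted if they differed by 1 unit or more. Counting by size in this way tests nothing, and it uses the values as measured. If the dimmer array was below background, a fold is given only as a bound against 6.24. For 3 counted members, fbxa-164, fbxa-180 and fbxa-212, that bound is under 2-fold (1.91, 1.75 and 1.55). The 3 arrays had nearly equal medians over worm probe sets (6.86 to 6.92), but their controls were not equal. All 24 probe sets for poly-A control transcripts were lower on both exposed arrays than on the control array, with median differences of -1.55 for GO and -0.98 for rGO. The 18 hybridisation control probe sets were lower on both as well, with medians of -0.62 for GO and -0.93 for rGO. The worms had the markers of adult hermaphrodites, with 4 of 4 measured yolk protein genes and 8 of 8 oocyte genes above background on every array. All 25 sperm genes were at least 2-fold lower on both exposed arrays (median -4.57 for GO minus control and -1.53 for rGO minus control). Among all genes 9.76% were counted as lower with GO and 9.88% with rGO. All the sperm genes but gsp-3 and gsp-4 are of 1 family, the msp genes, and whether their probe sets read separately was not checked. Of 3 cuticle collagen genes of the epidermis all 3 were counted as lower with GO and 2 with rGO. For one of them, bli-1, both exposed arrays were below background and the bound is 1.83-fold. The 2 probe sets of bli-1 lay 1.97 units apart for GO minus control and 1.38 units apart for rGO minus control. Of 5 neuron genes, 2 were at least 2-fold higher with GO than in the control, and 1 with rGO, beside 8.43% and 7.99% of all genes. All 4 body wall muscle genes were lower with GO, of which unc-54 was counted (-1.32 with GO and 0.13 with rGO). Fewer cells of a type and less RNA per cell cannot be told apart in whole worms, and the part of these markers in the results below was not tested.

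Cullins and adaptors were nearly all detected, whereas most F-box genes were not. All 6 cullins and 17 of 19 skr genes were above background on all 3 arrays. Of the 310 F-box genes, 59 were above background on all 3 arrays, 23 on some and 228 on none, which makes 73.5% below background throughout. The same held for 6461 of all 17118 genes, or 37.7%. The undetected share was 66.1% of the fbxa genes, 90.5% of the fbxb genes and 65.9% of the fbxc genes. Per array, 49 fbxa genes were above background with GO, 57 with rGO and 44 in the control. For fbxb genes the numbers were 9 with GO, 5 with rGO and 7 in the control, and for fbxc genes 15 with GO, 13 with rGO and 12 in the control. Among all 17118 genes, 9923 were above background with GO, 9781 with rGO and 9863 in the control. A value below background does not show that a gene was silent, because the brightness of a probe set depends also on its probes. For the same reason levels are not compared here between genes. RefSeq now lists 49 of the 335 members as pseudogenes, and 15 of these were above background on at least 1 array (11 on all 3), against 91 of the 286 protein-coding members (71 on all 3).

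**Figure D1:**
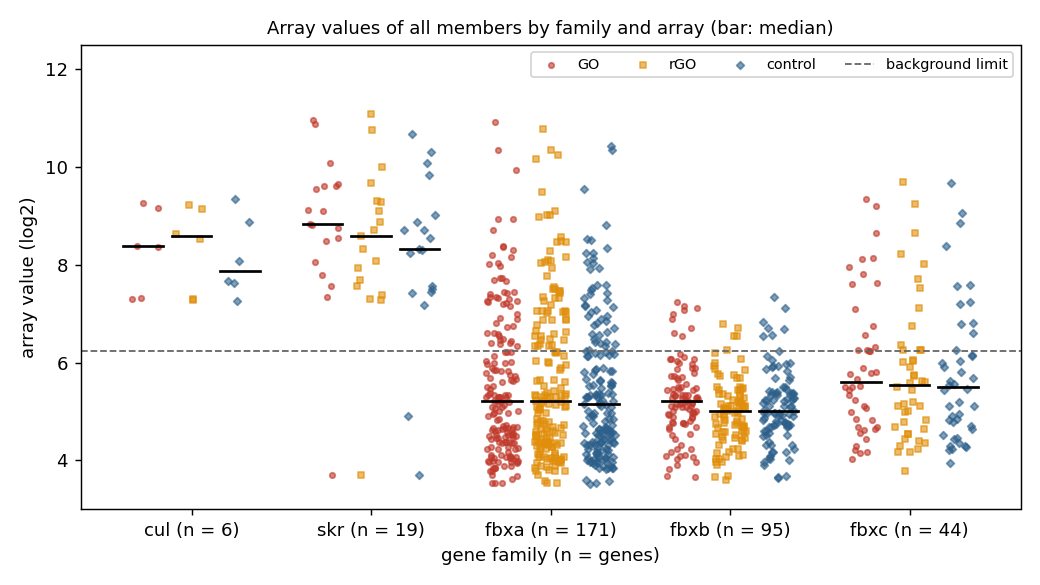
Log2 array values of all 335 members by family (x axis), with 1 point per gene for the GO, rGO and control arrays, a bar at each median, and the background limit of 6.24 as a dashed line. The cullins and all but 2 skr genes lie above the limit on every array, whereas 86 of 95 fbxb genes lie below it on every array.

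The cullin scaffolds differed by less than 2-fold in all comparisons. The gene cul-1 encodes the scaffold of the SCF complex proper, which in worms is needed for cells to leave the division cycle. It read 9.25 on the GO array, 9.15 on the rGO array and 9.35 on the control array. Its differences from control were -0.10 (GO) and -0.21 (rGO), and for rGO its 2 probe sets gave -0.68 and 0.27. The gene cul-6 encodes the other cullin that binds Skp1-related adaptors, and it read 7.31 with GO, 7.30 with rGO and 7.25 in the control. Its 1 probe set shares probes with other transcripts. Neither of the scaffolds that bind Skp1-related adaptors was near the 2-fold size on these arrays.

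The other cullins also stayed under 2-fold, with cul-5 the farthest from control. The gene cul-5, whose product uses elongin adaptors, read 8.39 with GO, 8.54 with rGO and 7.67 in the control, differences of 0.72 and 0.86. The gene cul-4 encodes the scaffold that limits DNA replication to one round, and it read 8.37 with GO, 8.64 with rGO and 8.08 in the control. Both exposed arrays were therefore above the control array for cul-4 and cul-5. Each of these genes is read by 1 probe set that shares probes with other transcripts. For cul-2, a scaffold with roles in meiosis and the early embryo, the values were 9.16 with GO, 9.22 with rGO and 8.86 in the control. Its 2 probe sets disagreed by 1.24 units for rGO minus control (-0.26 and 0.97) and by 1.06 units for GO minus rGO. The gene cul-3, whose product removes the meiotic katanin MEI-1 through the adaptor MEL-26, was the one cullin besides cul-1 with lower values on both exposed arrays, at 7.29 (GO) and 7.27 (rGO), against 7.62 in the control. Its 2 probe sets gave -0.59 and -0.08 for GO minus control, and -0.70 and 0.00 for rGO minus control.

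Among the adaptors, skr-21 was 5.58-fold higher with GO than in the control, and skr-5 was at least 6.21-fold higher with rGO. Of 19 skr genes, 4 were at least 2-fold higher with GO than in the control (skr-21, skr-5, skr-13 and skr-19) and 2 with rGO (skr-5 and skr-19), and none was at least 2-fold lower with either. All but skr-6 entered each comparison, and skr-6 was below background, at 3.71 (GO), 3.70 (rGO) and 3.71 (control). The share counted among all genes was 8.43% higher and 9.76% lower for GO, and 7.99% higher and 9.88% lower for rGO. With all 19 genes, whatever their level, the median difference was 0.58 for GO minus control and -0.01 for rGO minus control, beside a median of 0.00 over all genes for both.

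The gene skr-5 read 7.35 on the GO array, 8.88 on the rGO array and 4.90 on the control array. The control value is below background, so the exposed arrays were at least 2.15-fold (GO) and at least 6.21-fold (rGO) brighter. It was detected on both exposed arrays and not on the control array, and it was 2.88-fold lower with GO than with rGO. It rests on 1 probe set, which by the maker's naming shares no probes with other transcripts.

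The gene skr-21 showed the other order, with its high value on the GO array. It read 9.66 with GO, 7.69 with rGO and 7.18 in the control, so the GO array was 5.58-fold above the control array and 3.92-fold above the rGO array. Its 2 probe sets gave 2.60 and 2.36 for GO minus control, and 0.23 and 0.79 for rGO minus control. Both thus put the large difference on the GO array. In the RefSeq gene order skr-21 lies beside skr-19 and skr-20, with at most 3 other genes between neighbours. The gene skr-19 read 9.62 with GO, 9.67 with rGO and 8.56 in the control, and it was counted as higher with both (1.06 and 1.11). Its probe sets did not give one size, however, with GO minus control at 0.52 in the brighter and 1.61 in the dimmer, which was below background in the control (5.88). With the brighter probe set alone skr-19 was under 2-fold in both comparisons. The gene skr-20 read 8.82 with GO, 9.09 with rGO and 8.24 in the control, differences of 0.58 and 0.85.

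A set of 6 adaptors, skr-7, skr-8, skr-9, skr-10, skr-13 and skr-14, was brightest on the GO array and a little dimmer on the rGO array than on the control array (by 0.05 to 0.37). In C. elegans SKR-7, SKR-8, SKR-9 and SKR-10 bind CUL-1, and their depletion was reported to disturb the shape of the posterior body and the growth of larvae. The gene skr-13 read 9.54 with GO, 8.08 with rGO and 8.32 in the control. The gene skr-7 read 8.48 with GO, 7.28 with rGO and 7.49 in the control, and skr-8 read 9.61 with GO, 8.59 with rGO and 8.88 in the control. These 3 genes share one order of the arrays, namely GO, control, rGO from high to low.

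The same order was seen for skr-9, at 9.12 with GO, 7.94 with rGO and 8.31 in the control. It was seen also for skr-10, at 8.06 with GO, 7.30 with rGO and 7.44 in the control. The smallest differences of the 6 were those of skr-14, at 7.79 with GO, 7.37 with rGO and 7.42 in the control. Of these 6 genes only skr-13 was at least 2-fold higher with GO than in the control (1.22), and skr-7 was just under that size (0.99). Against the rGO array, the GO array was at least 2-fold brighter for skr-13 (1.45), skr-7 (1.20), skr-9 (1.18) and skr-8 (1.02). The 6 were grouped after their values were seen, and they are not 6 separate measurements. All probe sets of skr-8, skr-9, skr-13 and skr-14 share probes between transcripts by the maker's naming, and skr-8, skr-9 and skr-13 are near neighbours in the RefSeq order, as are skr-7 and skr-14.

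The adaptors best known from SCF work, skr-1 and skr-2, were under 2-fold in all comparisons, as were skr-3 and skr-4. The gene skr-1 encodes the main Skp1 of the worm, needed for embryos to develop, and it read 10.96 with GO, 10.76 with rGO and 10.31 in the control. Its neighbour skr-2 read 10.89 with GO, 11.07 with rGO and 10.66 in the control. Both were brighter on the exposed arrays, by 0.22 to 0.66 units. The gene skr-3 was dimmer on both exposed arrays, at 9.09 with GO and 9.29 with rGO, against 9.84 in the control. For skr-4 the values were 8.84 with GO, 9.30 with rGO and 9.02 in the control, so the exposed arrays lay on either side of the control array.

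The remaining adaptors differed little. The gene skr-16 read 8.54 with GO, 8.31 with rGO and 8.72 in the control. For skr-15 the values were 8.75 with GO, 8.70 with rGO and 8.70 in the control, and for skr-17 they were 10.09 with GO, 10.00 with rGO and 10.09 in the control. The gene skr-11, now listed as a pseudogene, read 7.57 on every array. Such exact ties were common in the deposited values, and 54 of the 335 members (16.1%) were equal on all 3 arrays, beside 12.9% of all genes. A difference of 0.00 therefore does not show that a transcript was the same.

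**Figure D2:**
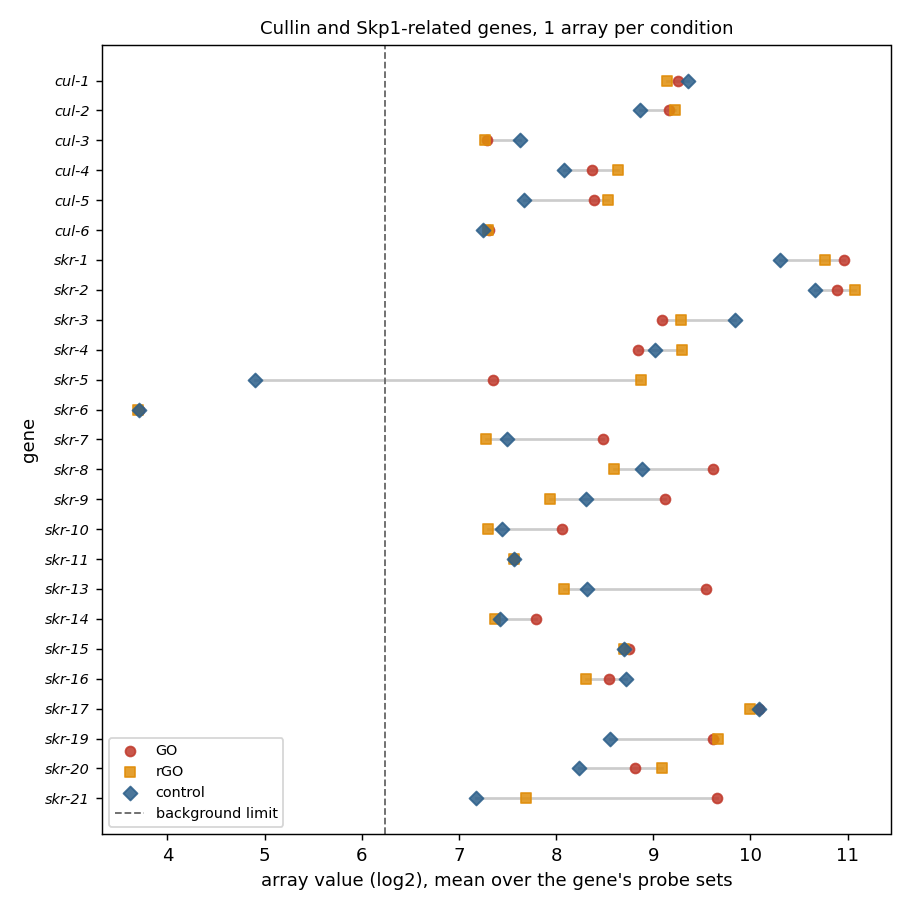
Log2 array values (x axis) of the 6 cullin and 19 skr genes (y axis), with 1 marker per array (GO, rGO, control), a grey line for the range of the 3 arrays and the background limit of 6.24 as a dashed line. The long lines of skr-5 and skr-21 end at different arrays, with rGO highest for skr-5 and GO highest for skr-21.

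The fbxa genes, whose F-box proteins often carry an FTH domain as well, held most of the large differences on the rGO array. With rGO, 10 fbxa genes were counted as higher than in the control and 1 as lower, of 46 that entered (21.7% and 2.17%), beside 7.99% and 9.88% of all genes. With GO, 3 were counted as higher and 1 as lower, of 40 that entered (7.50% and 2.50%), beside 8.43% and 9.76% of all genes. Without probe sets that share probes, 7 were higher with rGO and 1 with GO. No share of all genes is given for these counts, and the shares above do not apply to them. A gene that entered only through its bright array had to differ, so the shares are a description. With entry by the mean of the 3 arrays, a choice made after seeing the data, 37 fbxa genes entered. Then 7 were higher and 0 lower with rGO (18.9% higher), beside 7.58% and 7.72% of all genes. With GO 3 were higher and 0 lower (8.11% higher), beside 7.2% and 7.69% of all genes. Over all 171 fbxa genes, 91 were higher with rGO than in the control by any amount, 42 were equal and 38 were lower, with a median of 0.02. With GO 74 were higher, 50 equal and 47 lower, with a median of 0.00. Among all genes 44.4% were higher and 37.6% lower for rGO minus control, and 47.3% and 33.4% for GO minus control.

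The gene fbxa-24 was far above the control on both exposed arrays, most with rGO. The gene fbxa-24 read 8.94 with GO, 10.16 with rGO and 6.76 in the control, 4.52-fold and 10.6-fold above the control array. Its neighbour in the RefSeq order, fbxa-146, stayed below background on all arrays (5.21 with GO, 6.14 with rGO and 4.71 in the control). The gene fbxa-67 read 8.20 with GO, 9.48 with rGO and 7.18 in the control. Both fbxa-24 and fbxa-67 are read by 1 probe set that shares probes with other transcripts, so a part of either value may belong to a related gene. For fbxa-67 the GO difference was 1.02, and it was 0.96 after a further quantile normalisation and 0.97 with arrays centred on their medians, both under the size rule.

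Another 3 fbxa genes were high on the rGO array. The gene fbxa-6 read 6.90 with GO, 8.56 with rGO and 6.15 in the control, so the rGO array was at least 4.98-fold brighter than the control array. The gene fbxa-69 read 7.45 with GO, 9.01 with rGO and 7.15 in the control, 3.63-fold above the control array for rGO. Like fbxa-24 and fbxa-67, fbxa-69 is read by 1 probe set that shares probes with other transcripts. The gene fbxa-140 read 7.54 with rGO and was below background with GO and in the control, so the rGO array was at least 2.45-fold above each. All 3 were also lower with GO than with rGO, fbxa-6 by 3.17-fold and fbxa-69 by 2.96-fold.

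A run of neighbouring fbxa genes, fbxa-158 to fbxa-166, contained 2 of the genes counted for rGO. In the RefSeq order these 9 genes follow one another with at most 3 others between them. The gene fbxa-162, now listed as a pseudogene, read 6.80 with GO, 7.93 with rGO and 5.88 in the control. The gene fbxa-164 read 6.33 with GO, 7.18 with rGO and 5.36 in the control. The control value of both was below background, so the rGO array was at least 3.22-fold (fbxa-162) and at least 1.91-fold (fbxa-164) brighter. Next to them, fbxa-163 was above background on the rGO array alone, at 6.35, and did not enter. The other 6 genes of the run stayed below background on all arrays. Neighbours were common in the whole family, with 109 of 171 fbxa genes in 31 such runs, and in the longest, of 12 genes, fbxa-67 alone was counted.

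The other fbxa genes counted for rGO were fbxa-108, fbxa-107 and fbxa-212, with differences from 1.01 to 1.53, of which that of fbxa-212 is against a control value below background. These 3, like fbxa-146, fbxa-163 and fbxc-20, lie outside the rule that chose the named genes and are named with their values known. The gene fbxa-105 was counted for GO only, at 7.68 with GO, 7.06 with rGO and 6.43 in the control, with an rGO difference of 0.63. The gene fbxa-72 alone was counted as lower, and it was lower on both exposed arrays. It read 5.09 with GO and 5.27 with rGO, both below background, against 8.52 in the control, which is at least 4.85-fold lower in each. The probe sets with the brightest means in the family showed no such differences. The gene fbxa-215 read 10.92 with GO, 10.77 with rGO and 10.42 in the control, fbxa-101 read 9.93 with GO, 10.24 with rGO and 9.55 in the control, and fbxa-210 was listed at 10.35 on all arrays.

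**Figure D3:**
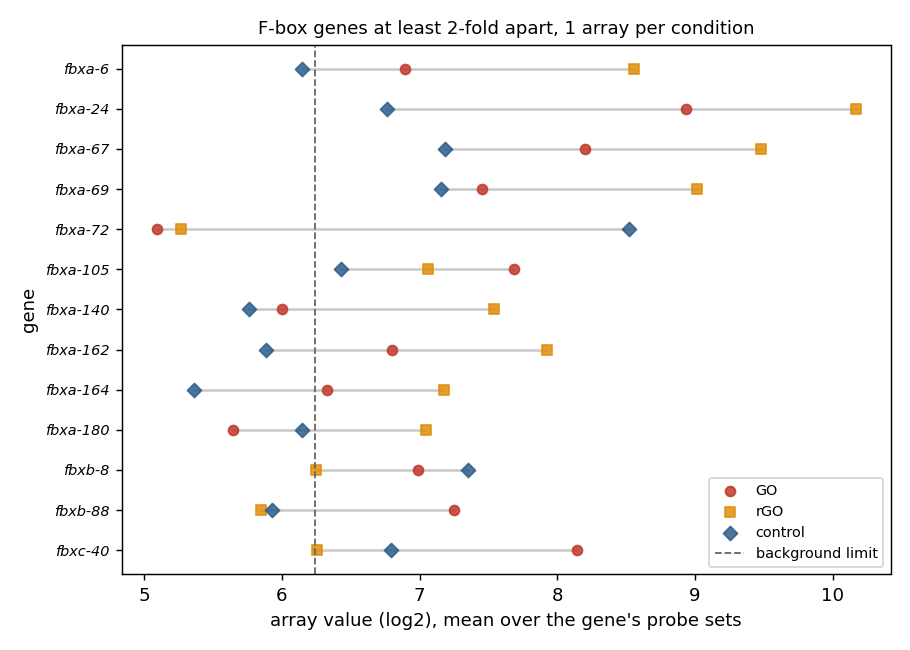
Log2 array values (x axis) of the 13 named F-box genes that were counted in a comparison (y axis), with 1 marker per array (GO, rGO, control), a grey line for the range and the background limit of 6.24 as a dashed line. The rGO array is highest for fbxa-6, fbxa-24, fbxa-67 and fbxa-69, the control array for fbxa-72, and the GO array for fbxb-88 and fbxc-40.

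The fbxb genes, another F-box family, were mostly below background, and few could be compared. With GO, 1 of the 6 that entered was at least 2-fold higher (fbxb-88), and with rGO 1 of the 3 that entered was at least 2-fold lower (fbxb-8), beside 8.43% of all genes higher for GO and 9.88% lower for rGO. The gene fbxb-88 read 7.25 with GO, 5.85 with rGO and 5.93 in the control, so it was above background on the GO array alone. The gene fbxb-8 read 6.99 with GO, 6.25 with rGO and 7.35 in the control. Each rests on 1 probe set that shares probes. The gene fbxb-41 read 7.15 with GO, 6.55 with rGO and 7.12 in the control, and fbxb-100 read 7.12 with GO, 6.78 with rGO and 6.55 in the control.

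Small differences of the fbxb genes ran one way between the exposed arrays. Of all 95, 71 were higher with GO than with rGO, 23 were equal and 1 was lower, with a median of 0.19. Of the 86 fbxb genes below background on every array, 64 were higher, 21 equal and 1 lower. Over the 6461 genes of the whole array that were below background on every array, 36.2% were higher with GO than with rGO and 20.5% lower. Against the control array, 57 of the 95 fbxb genes were lower with rGO and 17 higher (median -0.06), and 14 were lower with GO and 51 higher (median 0.03). Of the 86 below background, 51 were lower and 16 higher with rGO, and 13 were lower and 45 higher with GO. Over the 6461 genes below background, 34.2% were lower and 31.6% higher with rGO, and 26.2% were lower and 38.6% higher with GO. Of the 8 control probe sets with no expected target, 0 were lower with GO than with rGO and their median difference was 0.00. What these small differences below background come from was not tested.

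Of the fbxc genes that entered against the control, 1 of 11 was counted as higher for GO (9.09%, beside 8.43% of all genes). The gene fbxc-40 read 8.14 with GO, 6.26 with rGO and 6.79 in the control, 2.55-fold above the control array and 3.68-fold above the rGO array for GO. A further probe set, which names both fbxc-40 and K02E7.7, was below background on all arrays. It read 5.47 with GO, 5.23 with rGO and 5.21 in the control, a GO minus control difference of 0.27. None of the 10 that entered was counted for rGO minus control, beside 7.99% of all genes higher and 9.88% lower. The gene fbxc-20 was above background on the GO array alone, at 6.57, and did not enter. The probe sets of fbxc-50 disagreed. For GO minus control it gave -1.41 in the brighter and -0.11 in the dimmer, which was below background on all arrays, and for rGO minus control -1.24 and -0.13. The brightest of the family read 9.35 with GO, 9.68 with rGO and 9.66 in the control (fbxc-45), 9.19 with GO, 9.24 with rGO and 8.84 in the control (fbxc-47), and 8.65 with GO, 8.65 with rGO and 9.05 in the control (fbxc-32).

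Over all members, higher values outnumbered lower ones among those counted against the control. With GO 9 of the 81 members that entered were counted as higher and 1 as lower (11.1% and 1.23%), beside 8.43% and 9.76% of all genes. With rGO 12 of 83 were higher and 2 lower (14.5% and 2.41%), beside 7.99% and 9.88% of all genes. Both comparisons use the same control array. When entry was set by the mean of the 3 arrays, a choice made after seeing the data, 73 members entered. Then 8 were higher and 0 lower with GO, beside 7.2% and 7.69% of 8612 genes, and 9 were higher and 1 lower with rGO, beside 7.58% and 7.72%. The gene that no longer entered on the lower side was fbxa-72.

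Set directly against each other, the exposed arrays differed mostly in adaptors in one direction and mostly in fbxa genes in the other. On the GO array 7 of 84 members were at least 2-fold higher than on the rGO array, namely skr-21, fbxc-40, skr-13, fbxb-88, skr-7, skr-9 and skr-8. Another 8 were counted as lower with GO than with rGO, namely fbxa-6, fbxa-69, fbxa-140, skr-5, fbxa-180, fbxa-67, fbxa-24 and fbxa-162. The shares were 8.33% and 9.52%, beside 5.59% and 3.73% of all genes. Of the 7 higher genes 5 were adaptors, and 7 of the 8 lower genes were fbxa genes. These were 27.8% of the 18 skr genes and 15.9% of the 44 fbxa genes that entered. Without probe sets that share probes, 4 members were higher, 2 of them skr genes, and 5 were lower, 4 of them fbxa genes. For these counts no share of all genes is given. The call of skr-8 was also lost with its brightest probe set (0.96) and with arrays centred on their medians (0.97). For fbxa-180, now listed as a pseudogene, the values were 5.65 with GO, 7.05 with rGO and 6.15 in the control. With entry by the mean, 6 members were higher and 6 lower, beside 4.26% and 3.44% of all genes, and fbxb-88, fbxa-140 and fbxa-180 did not enter.

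**Figure D4:**
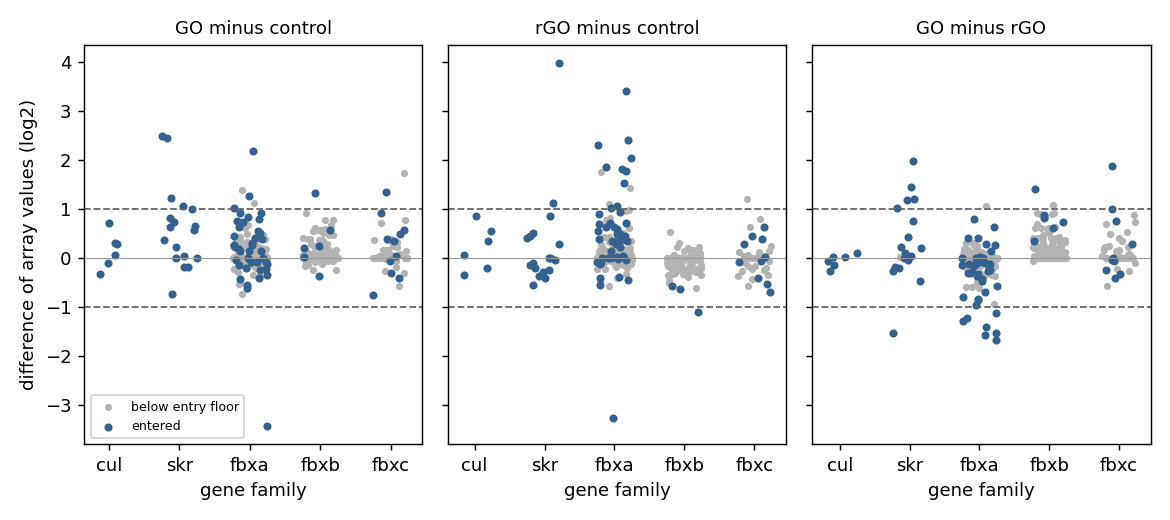
Differences of log2 array values (y axis) for each member by family (x axis) in the comparisons GO minus control, rGO minus control and GO minus rGO, with genes that entered in blue, genes below the entry floor in grey and dashed lines at 2-fold. The members counted as higher for rGO minus control are skr-5, skr-19 and 10 fbxa genes, and the fbxb genes of GO minus rGO lie at or above 0 except 1.

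The partners that switch cullin ligases on and off differed little, apart from 3 with rGO. Of 20 listed cofactors 17 were measured by probe sets of their own and 16 entered. None was at least 2-fold apart for GO minus control, with csn-4 (0.67), ula-1 (0.64), csn-1 (0.45) and dcn-1 (0.37) the farthest. With rGO 3 of 16 were at least 2-fold higher, beside 7.99% of all genes. They were ula-1, a subunit of the enzyme that activates the cullin modifier NEDD8 (1.06), and csn-1 and csn-4, subunits of the COP9 signalosome that removes it (1.02 and 1.08). The gene csn-4 read 7.60 with GO, 8.02 with rGO and 6.93 in the control, and csn-2 was below background on all arrays. The ubiquitin-conjugating enzyme gene let-70 was higher by 0.44 with rGO, although its probe sets lay 1.36 units apart. The RING partner rbx-1 read 11.34 with GO, 11.32 with rGO and 11.38 in the control. The median of the 17 was 0.06 for GO minus control and 0.19 for rGO minus control, beside 0.00 over all genes.

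F-box genes with names of their own were mostly under 2-fold. Of 9 measured genes 8 entered, with 0 counted for GO and 1 as higher for rGO, beside 8.43% and 7.99% of all genes. That one was fbxl-1, a gene for an F-box protein with leucine-rich repeats, at 9.69 with GO, 10.29 with rGO and 8.78 in the control. The gene dre-1, an F-box gene of developmental timing, read 9.28 with GO, 8.34 with rGO and 8.57 in the control. The germline F-box gene prom-1 was higher by 0.67 with GO and 0.60 with rGO, and fsn-1, an F-box gene of synapses, by 0.48 and 0.51. The gene sel-10, whose product limits Notch signalling, was higher by 0.36 with rGO with probe sets 1.10 apart.

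The substrate receptors of the other cullins gave 1 counted gene. Of 14 listed, 13 were measured and entered, with 0 counted for GO and 1 as higher for rGO (7.69%), beside 8.43% and 7.99% of all genes. The gene ddb-1, the adaptor of CUL-4, read 9.28 with GO, 9.94 with rGO and 8.52 in the control, a difference of 1.42 for rGO and 0.76 for GO. The gene zif-1, a receptor of CUL-2 that clears germline proteins from somatic cells of the embryo, had differences of -0.83 with GO and -0.93 with rGO. For fem-1, a sex-determination receptor of CUL-2, the differences were 0.39 and 0.68, with probe sets 1.55 apart for rGO. The differences of zyg-11, a CUL-2 receptor of meiosis, were 0.40 and 0.40, and that of kel-8 for rGO was -0.68.

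Among 11 genes for targets or partners of cullin ligases, cki-1 and glp-1 were counted. Of the 10 that entered, 2 were higher for GO and 1 for rGO (20.0% and 10.0%), beside 8.43% and 7.99% of all genes. The cell cycle inhibitor gene cki-1 read 9.63 with GO, 8.75 with rGO and 7.83 in the control, counted for GO (1.80) and not for rGO (0.92). The germline Notch receptor gene glp-1 read 10.35 with GO, 10.46 with rGO and 9.25 in the control, counted for both (1.10 and 1.21). The gene skn-1, for a stress factor removed by CUL-4, had differences of -0.80 with GO and -0.39 with rGO, with probe sets 1.68 apart for rGO. The gene cdt-1 was below background on all arrays. For lin-41 and oma-1, genes of oocyte maturation, the rGO differences were 0.91 and 0.74. Array values of a target's transcript say nothing of how fast its protein is degraded.

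In worms infected by microsporidia or a virus, CUL-6 is known to act with SKR-3, SKR-4, SKR-5, FBXA-75 and FBXA-158 in a ligase of the intracellular pathogen response. Here skr-5 alone of these 6 genes, of which 4 entered, was at least 2-fold apart, with both exposures. Among all genes 8.43% were counted as higher and 9.76% as lower with GO, and 7.99% and 9.88% with rGO. The F-box genes fbxa-75 and fbxa-158 were below background on all arrays (3.80 to 4.23), cul-6 differed by 0.06 with GO and 0.05 with rGO, and skr-3 was lower than in the control on both. Of 32 other genes of that response, 26 were below background on all arrays and 4 entered, with 0 counted in any comparison. With only 4 entered, a count of 0 cannot be told from the shares of all genes. The median difference from control over the 32 was 0.00 for both exposures, and over the 4 it was 0.26 with GO and 0.03 with rGO. The marker gene pals-5 read 4.04 with GO, 4.04 with rGO and 4.09 in the control. The rGO values of pals-32 and pals-31, both 6.22, lay just below background, and their GO and control values were below it too. Their control values were 4.75 and 5.01. The rGO minus control differences, 1.47 and 1.22, were the largest of the list, but neither gene entered. Among those that entered, pals-25, a gene that promotes the response, differed by 0.29 with GO and 0.63 with rGO, and pals-22, which restrains it, by 0.45 and 0.27.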

How the data were processed

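The deposited table holds log2 expression values per probe set, which per the submitters' processing notes were made with GCOS, Affymetrix Expression Console and RMA; no version or order is given in the sources used here. RMA corrects background, equalises the arrays' distributions and summarises each probe set over the arrays, so a general change in RNA per worm cannot be seen. Of 22625 probe sets, 20766 carry 1 gene in the platform annotation and 20701 of these matched a RefSeq table of assembly WBcel235 by gene identifier; the table served for current names, biotypes and gene order only. Probe sets of 1 gene were averaged, giving 17118 genes. The 335 members rest on 348 probe sets, 49 of which share probes between transcripts, and 40 members have no other kind. Another 24 probe sets name a member family with several genes and entered no comparison. A fold was taken against 6.24, as a lower bound, if the dimmer of its arrays was under that limit. Alternatives were the brightest probe set per gene, leaving out probe sets that share probes, other entry floors, a further quantile normalisation and centring on medians.

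Every cul and skr gene is named, and of each F-box family the up to 6 (fbxa) or 4 (fbxb, fbxc) largest counted differences per comparison and direction and the 3 brightest. Also stated is each member with probe sets over 1 unit apart, and in other lists the up to 4 largest differences per comparison; rbx-1, csn-2, pals-5 and the genes said so in the text are named outside this rule. The members and lists were chosen with earlier results of these data known. The counting step was run on simulated data with large planted changes and little noise, which checks the code and not the counts given here. Python 3.11.15 and pandas 2.3.3 were used. The number of arrays limits the precision, and no test was run.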

Additional observations from a re-analysis of the deposited data

Results flagged for a closer look

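A signal appeared in data outside the comparisons, on a probe set that names both fbxa-180 and C18D4.8. It read 5.55 with GO, 7.28 with rGO and 5.42 in the control, which is 1.87 units higher with rGO than in the control, although the control value was below background. The probe set of fbxa-180 alone read 5.65 with GO, 7.05 with rGO and 6.15 in the control. No condition has 4 or more arrays, so no array was tested for standing apart from others of its group.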

How the results depend on the processing

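Each condition has 1 array, so no array could be left out. No paired analysis was possible because the result comes from no test and each group has 1 array. Only 13 of the 335 members have several probe sets, so most alternatives could hardly turn the direction of a counted difference. Counted differences of the members named by rule kept their direction wherever the gene was still measured. Some smaller ones did not: for rGO minus control, the brightest probe set put cul-1 at 0.27 and cul-2 at -0.26, and for GO minus rGO cul-1 at -0.29 and cul-2 at 0.48, with cul-2 the same without shared probes. Without probe sets that share probes, 295 members were left among 13618 genes. Under that alternative GO minus control had 1 fbxa, 0 fbxb and 2 fbxc genes higher, rGO minus control had 1 member and 0 fbxb genes lower, and GO minus rGO had 4 members, 2 cul and skr genes, 0 fbxb and 2 fbxc genes higher, with 5 members and 4 fbxa genes lower. With the brightest probe set per gene, 2 members and 1 fbxc gene (fbxc-50) were lower for GO minus control, 1 fbxc gene was lower for rGO minus control, and 1 skr gene was higher there, since skr-19 was at 0.52 and 0.61; skr-8 was at 0.96 for GO minus rGO. With no entry floor, 5 fbxa and 2 fbxc genes were higher for GO minus control, 1 fbxc gene for rGO minus control, and 1 fbxa and 2 fbxb genes for GO minus rGO. With the floor at the background limit, 2 fbxc genes were higher for GO minus control. With entry by the mean of the arrays, chosen after seeing the data, 0 members, 0 fbxa genes lower and 0 fbxb genes higher were counted for GO minus control, 1 member and 0 fbxa genes lower for rGO minus control, and 0 fbxb genes higher for GO minus rGO. A further quantile normalisation and centring each array moved no count by over 1.5 times; fbxa-67 for GO minus control and skr-8 for GO minus rGO (0.97, centred) then lay just under 2-fold. Shares of all genes are given only for the counting rule of the Results and for entry by the mean. The counts under the other alternatives stand without such a share. The precision is limited by 1 array per condition and, for 229 members, by values below background on all arrays.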

Other observations

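Some probe sets name several genes of these families, and 26 family genes are read by no other kind. The probe set of skr-3 and skr-4 read 9.55 with GO, 9.67 with rGO and 10.00 in the control. That of skr-12 and skr-13 read 6.81 with GO, 6.12 with rGO and 6.28 in the control, with the order of arrays that skr-13 had alone. The probe set of fbxc-1 to fbxc-5 was above background on all arrays, at 7.55 with GO, 8.26 with rGO and 8.10 in the control. The probe set of fbxa-156 and fbxa-157 read 8.42 with GO, 8.70 with rGO and 7.84 in the control, and that of fbxa-77 and fbxa-208 read 7.96 with GO, 7.74 with rGO and 7.36 in the control. Of the 24 shared probe sets, 17 were below background on all arrays.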
